A study of Homo sapiens with 2 samples.

Results

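Close H3K4me3 peak pairs are neighbouring peaks separated by a short stretch in which no peak was called, here named the valley. In the WT peak list, neighbouring peaks on chromosomes 1 to 22 were paired where the start of the next peak lay 500 bp or less past the end of the previous one. Pairs inside a run of 3 or more such peaks were left out. This gave 2599 pairs among 19036 adjacent pairs, and their 5198 peaks made up 27.3% of the 19058 WT peaks on these chromosomes (95% interval 26.6 to 27.9). The pairs were chosen by the positions of the WT peaks, so their WT values are given as a description. The depth of the valleys was not measured, because a peak list holds no signal between peaks.

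The data were chromatin immunoprecipitation and sequencing (ChIP-seq) of H3K4me3 in HEC-1-B, an established line from a human uterine (endometrial) adenocarcinoma. One group was wild type (WT) and the other was the ZNF143 knockout (ZNF143KO), with 1 library of each genotype. Both groups were grown in the same medium, with no further treatment named. Whether the knockout cells are 1 clone is not given in the sources used here, and with 1 library each no difference between the genotypes has a replicate check.

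H3K4me3, trimethylation of lysine 4 on histone H3, is placed by the SET1 and MLL methyltransferase complexes and marks the nucleosomes at active promoters. An active promoter carries a nucleosome-depleted stretch at the transcription start, where transcription factors and RNA polymerase II sit. The mark therefore often forms a shoulder on each side of a dip. ZNF143 is a zinc-finger transcription factor known for binding promoters. It has also been reported at the anchors of chromatin loops beside CTCF and cohesin, which was not examined here. No gene is named for any pair, because no gene annotation of the hg19 build was used.

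The libraries and their peak lists differed in depth, peak width and smallest gap. The lowest local background rate recovered from the peak lists was 1.40 fragments per base in WT and 3.25 in the knockout, a ratio of 2.31. Recovered summit pileup, the number of fragments stacked at the highest point of a peak, had a median of 208 in WT and 379 in the knockout. The median peak was 888 bp wide in WT and 1008 bp in the knockout. No 2 WT peaks lay closer than 163 bp, while the smallest gap in the knockout list was 175 bp. The narrowest peak was 162 bp wide in WT and 174 bp in the knockout, so in each list the smallest gap was 1 bp above the narrowest peak. The distance below which the peak caller joined neighbouring stretches is not given in the sources used here, and whether the gaps are cut off at it was not tested. The part of these differences in the results below was not tested, except where values are given beside them.

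Valleys were short. The median gap of the 2599 pairs was 231 bp (95% interval of the median 227 to 235), with quartiles of 192 and 295.5 bp. Gaps were most frequent just above the smallest gap, where shorter valleys may be missing from the list: 801 pairs (30.8%) had a gap of 200 bp or less, 59.7% of 250 bp or less and 76.3% of 300 bp or less. Only 178 pairs (6.85%) had a gap above 400 bp. The 14 pairs at the smallest gap of 163 bp included chr1:25572859-25573971 with chr1:25574135-25574627 (hg19, counted from 1), chr3:37902313-37903206 with chr3:37903370-37904517, and chr4:6710820-6711604 with chr4:6711768-6712138.

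The limit itself did not fall at a break in the distribution. At the inner side of it, 14 pairs had a gap within 10 bp of the limit, including 2 at 500 bp. Just past it, 18 pairs had a gap within 10 bp, the smallest being 502 bp. On chromosome 16, the pair of largest gap joined a peak of 2380 bp and fold 7.30 at chr16:68268954-68271333 to one of 231 bp and fold 2.90 at chr16:68271834-68272064. Just outside, on chromosome 2, peaks of fold 7.90 and 10.4 at chr2:64977009-64978058 and chr2:64978561-64979227 were 502 bp apart. The other pairs nearest the limit were 500 bp apart at chr17:43127812-43128932 with chr17:43129433-43129717 (folds 11.9 and 5.57) and 499 bp apart at chr4:49150975-49152042 with chr4:49152542-49152723 (15.2 and 2.58). Outside it, the next were 502 bp apart at chr17:73073299-73074651 with chr17:73075154-73075365 (7.43 and 2.78) and 504 bp apart at chr2:65356258-65357294 with chr2:65357799-65358118 (12.6 and 4.73). Fold is the authors' enrichment of the summit over the local background.

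**Figure D1:**
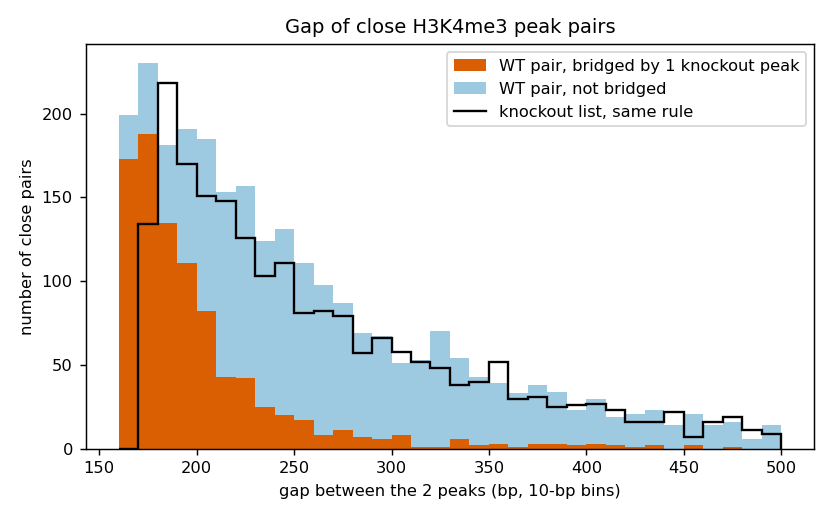
Number of close pairs (y axis) by gap in bp (x axis, 10-bp bins) for the 2599 WT pairs, split into those bridged by 1 knockout peak (orange) and the rest (blue), with the 2092 pairs of the knockout list under the same rule as a black line. The orange part fills most of the bars below 200 bp and little of those above 250 bp.

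Distance between the summits was larger and more spread than the gap. It had a median of 643 bp (633 to 651) with quartiles of 525 and 813 bp, and ran from 237 to 3162 bp. Summit distances between 450 and 600 bp held 35.7% of the pairs, and 11.9% lay above 1000 bp. Peak centres were farther apart, at a median of 963 bp. From outer edge to outer edge a pair covered a median of 1685 bp, and the valley took up 14.6% of that span. Gap and summit distance rose together weakly (Spearman's rho 0.425 over 2599 pairs, as a description). The gap is a part of the summit distance, which by itself favours a positive rho.

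Summits leaned towards the valley. Of the 5198 peaks, 4297 (82.7%, 81.6 to 83.7) had their summit nearer the inner edge, the one at the valley, than the outer edge. The summit lay a median of 161 bp from the inner edge and 455 bp from the outer edge. In 69.3% of pairs both summits leaned inward, and in 3.89% both leaned outward. The heavier peak of a pair, that of higher pileup, leaned inward in 86.5% of pairs and the lighter in 78.8%.

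This lean was smaller where the gap was larger. Among the 307 adjacent WT pairs with a gap over 500 and up to 1000 bp, 63.8% of summits leaned inward (59.9 to 67.7). Between 1000 and 2000 bp (255 pairs), the share was 52.7% (48.3 to 57.1). These wider classes were taken by gap alone, so a peak in them may also have a close neighbour on its other side. How often it did was not counted, and its part in the smaller lean was not tested. Peaks with no close neighbour have no inner side, so this lean cannot be measured for them. By genome coordinate, 48.4% of their 13383 summits lay on the right side of the peak centre. Leans to the left in some peaks and to the right in others would also give a share near even. That share is therefore not comparable with the inner shares. The knockout list gave a similar inward lean for its own close pairs, with 82.2% of 4184 summits on the inner side.

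**Figure D2:**
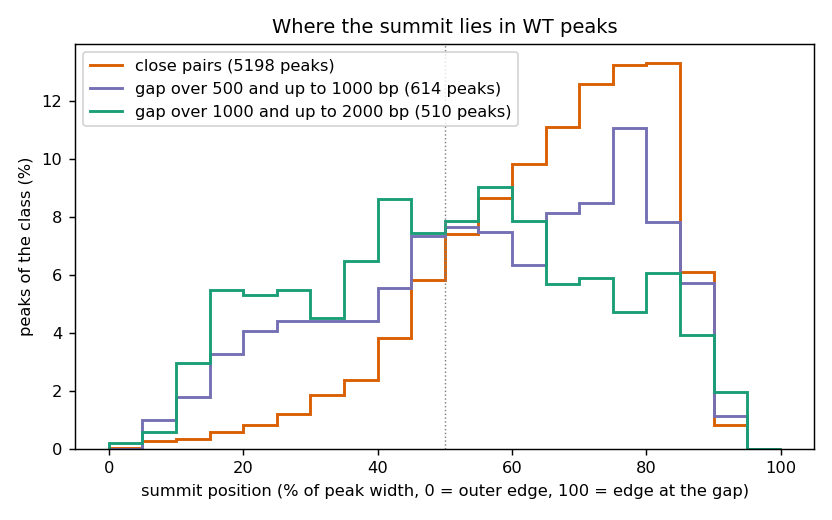
Share of WT peaks (y axis, %) by the position of the summit within the peak (x axis, % of peak width from the outer edge at 0 to the valley edge at 100), for close pairs and for 2 classes of wider gap. Close pairs are shifted to the right, with a median of 68.4%, and the class with gaps over 1000 and up to 2000 bp has a median of 52.2%.

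Peaks of close pairs were narrow for their height. Their median width was 685 bp, against 997 bp for the 13383 WT peaks with no close neighbour. Median pileup was 215 and 206 fragments, and median fold was 8.38 and 12.9. The local background rate against which a summit was scored had a median of 26.0 fragments in close pairs and 13.4 in peaks with no close neighbour. Each pair was then sorted by pileup into a heavier and a lighter peak, so a difference in pileup between them is built in. The same medians were not taken for other adjacent pairs. The heavier peak had a median pileup of 340, a width of 923 bp and a fold of 12.0, and the lighter a pileup of 128, a width of 418 bp and a fold of 5.52.

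Left-right balance was then read from the ratio of the folds of both peaks. By genome coordinate, neither side was favoured: the left peak had the higher fold in 1299 pairs (50.0%, 48.0 to 51.9), and 11 pairs were tied. The direction of genes was not used, so this share does not compare the upstream and downstream sides of promoters. The median absolute log2 ratio was 1.05 (1.00 to 1.09). Adjacent WT pairs past the limit also differed, with a median of 0.83 for gaps over 500 and up to 600 bp (116 pairs). Over 5000 bp it was 0.63 (14977 pairs), and the classes between had medians from 0.57 to 0.86. The shares that follow were not taken for those pairs. In 493 pairs (19.0%) the folds were within 1.25-fold of each other, in 1353 (52.1%) they differed at least 2-fold, and in 432 (16.6%) at least 4-fold. Recovered pileup gave a median absolute log2 ratio of 1.06 and peak width 1.07.

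Height and width went together within a pair. The peak with the higher pileup was also the wider in 85.2% of 2576 pairs, and the log2 left-right ratios of pileup and width had a Spearman's rho of 0.875 (n = 2599, a description; both come from the same fragments). Near-even pairs, those within 1.25-fold, had median widths of 704 bp for the lighter and 803 bp for the heavier peak. In pairs at least 4-fold apart, these were 216 and 968.5 bp. The median gap hardly moved across those classes, from 229 to 234 bp, and gap and absolute log2 ratio had a rho of 0.014.

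At the extremes, a full peak stood beside one near the narrowest width in the WT list. The most left-heavy pair, at chr10:32048618-32049049 and chr10:32049429-32049609, had folds of 27.7 and 2.88 and pileups of 262 and 26. In the knockout, both peaks were called again with folds of 25.1 and 2.82. The most right-heavy pair, at chr6:80815923-80816090 and chr6:80816344-80817060, had folds of 2.55 and 25.3 and pileups of 48 and 485. There the knockout list held a peak of fold 23.1 over the right peak and none over the left.

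The other extreme pairs took different courses in the knockout list. At chr17:80407949-80408666 and chr17:80408863-80409030, WT folds of 25.1 and 2.76 lay under 1 bridging knockout peak of fold 23.4. At chr2:74153581-74153754 and chr2:74154007-74154796, WT folds of 2.29 and 21.6 were also bridged, by a peak of fold 22.2. At chr9:35814367-35815397 and chr9:35815629-35815803, with WT folds of 22.8 and 2.65, only the heavier left side had a knockout peak, of fold 22.3. At chr7:150725053-150725222 and chr7:150725496-150726330, with folds of 3.37 and 30.4, only the heavier right side had one, of fold 22.3. Of these 6 pairs 1 kept both peaks, and each kept a knockout peak on its heavier side.

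The next comparison asked whether the valley was still free of a called peak in the knockout list. One knockout peak overlapped both WT peaks, by at least 1 bp each, in 909 of the 2599 pairs (35.0%, 33.1 to 36.8), and such a pair is called bridged. Over all 19036 adjacent WT pairs the share was 5.32%. Pairs outside the members had 0.633%, pairs in runs of 3 or more 28.9%, and pairs with gaps over 500 and up to 1000 bp 3.26%. With gaps over 1000 and up to 2000 bp it was 0.392%. Of the 15553 pairs with a gap over 2000 bp 0 were bridged (0.00%). The rule itself selects short gaps, so the difference from all pairs is given as a description.

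Bridging fell steeply with the gap even inside the limit. It held 84.7% (80.1 to 88.6) of the 294 pairs with a gap of 174 bp or less and 70.6% (66.4 to 74.5) of those up to 200 bp. From there it dropped to 35.0% up to 225 bp, 19.7% up to 250 bp and 11.3% up to 300 bp. Over 300 bp, 41 of 616 pairs were bridged (6.66%, 4.82 to 8.92). The median gap was 187 bp in bridged pairs and 263 bp in the rest, and 90.1% of bridged pairs had a gap of 250 bp or less.

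**Figure D3:**
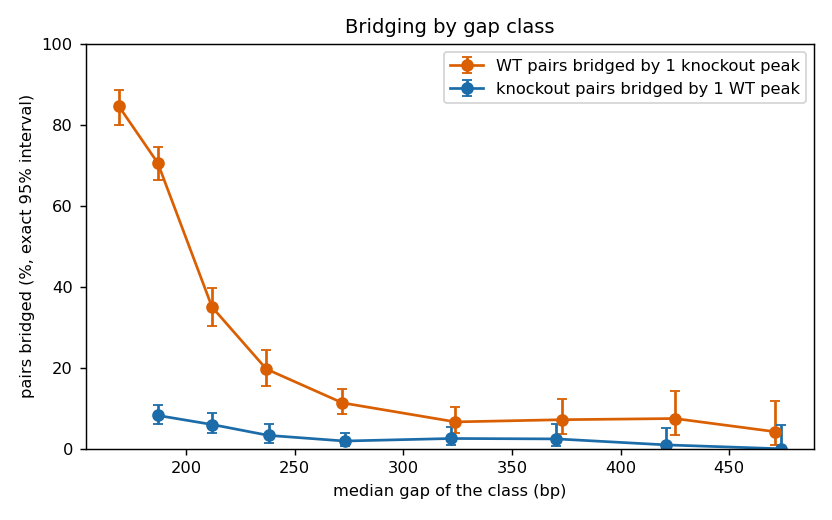
Share of close pairs bridged by 1 peak of the other list (y axis, %, bars are exact 95% intervals for counting error) by the median gap of each gap class (x axis, bp). WT pairs fall from 84.7% to 4.23%, while knockout pairs bridged by WT peaks start at 8.24% and reach 0%.

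The shortest of these gaps have no match in the knockout list, whose smallest gap was 175 bp. Of the 294 pairs with a WT gap under that, 249 were bridged and 32 of the other 45 had 1 knockout peak for each side. Among the 2305 pairs with a gap of 175 bp or more, 660 were bridged (28.6%, 26.8 to 30.5). This bound was chosen after the data were seen.

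With the lists swapped, far fewer pairs were bridged. The same rule found 2092 close pairs in the knockout list, holding 22.1% of its 18909 peaks, with a median gap of 240 bp and a median summit distance of 699 bp. A single WT peak bridged 92 of them (4.40%, 3.56 to 5.37), against 0.561% of all 18887 adjacent knockout pairs. Each side had its own WT peak in 1586 of them (75.8%), 1 side only had a WT peak in 312 (14.9%, 13.4 to 16.5), neither in 36 (1.72%), and in 66 a side held several WT peaks. Within the gap class over 174 and up to 200 bp, where both lists hold pairs, 70.6% of WT pairs and 8.24% of knockout pairs were bridged. This class starts at the smallest knockout gap of 175 bp but lies above the smallest WT gap of 163 bp. It therefore does not remove the difference in smallest gap between the lists. In that class the summit of the lighter peak had a median pileup of 134 in WT pairs and 232 in knockout pairs. The knockout pair of highest lower pileup bridged by WT, chosen after its values were seen, had folds of 6.60 and 8.11 at chr17:60555259-60555987 and chr17:60556168-60557605, under 1 WT peak of fold 8.65 and 2258 bp.

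In strength, width and balance, bridged and unbridged pairs had values close to each other. The lighter peak had a median pileup of 131 in bridged and 128 in unbridged pairs, and the heavier 336 and 342. Median peak width was 675.5 and 689 bp, and the median absolute log2 fold ratio was 1.01 and 1.06. By imbalance, the bridged share was 35.1% for pairs within 1.25-fold, 36.1% up to 2-fold, 34.0% up to 4-fold and 35.0% above that. By lower pileup, it was 38.8% in the class of weakest pairs and between 32.3% and 37.3% in the others. Summit distance went with it: 64.9% of pairs with summits up to 500 bp apart were bridged, against 22.9% of those over 1000 and up to 1500 bp. These 2 classes also differed in gap, with medians of 189 and 268 bp.

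Within gaps over 200 and up to 250 bp, pairs with summits up to 500 bp apart were bridged in 42.0% (33.4 to 50.9), at a median gap of 216 bp, and the classes of larger summit distance in 21.3% to 30.6%. By strength of the lighter peak, the weakest of 5 classes in that gap range stood at 39.1% (31.2 to 47.3). The other 4 classes, in order of rising pileup, had 28.8%, 23.8%, 27.0% and 22.3%, with no steady order. The lighter peak had a median pileup of 63 in the class with summits up to 500 bp apart.

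The summit of the bridging knockout peak mostly lay at the larger WT summit. There were 909 distinct bridging peaks, with a median width of 1668 bp, or 104% of the WT span, and 53.8% covered the whole span. Their summit lay in the left WT peak in 459 cases, in the right in 443, in the valley in 4 and outside the pair in 3. It fell in the WT peak of higher pileup in 823 of 898 cases (91.6%, 89.6 to 93.4). For pairs with a log2 pileup ratio under 0.5 this was 74.0%, and over 2 it was 99.3%. The knockout summit lay a median of 15 bp from the WT summit of its side.

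The 5 bridged pairs with the highest lower fold were near even, and the knockout summit lay at the heavier WT peak in 3 of them and at the lighter in 2, both on chromosome 16. On chromosome 15, WT peaks of fold 14.3 and 15.6 at chr15:65133276-65133908 and chr15:65134079-65134555, 170 bp apart, lay under 1 knockout peak of fold 17.2 and 1337 bp. Its summit stood 24 bp from that of the heavier, right WT peak. On chromosome 16, peaks of fold 14.8 and 13.9 at chr16:27560415-27561250 and chr16:27561441-27562088 were bridged by a knockout peak of fold 15.5, whose summit stood at the lighter WT peak. The next pair, at chr1:45139363-45140197 and chr1:45140384-45140811, had WT folds of 16.4 and 13.8 and a knockout peak of fold 13.4.

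The remaining bridged pairs of this kind were on chromosome 9, with folds of 13.5 and 15.8 at chr9:131102466-131102795 and chr9:131102960-131103770, and on chromosome 16, with folds of 13.4 and 14.5 at chr16:53737266-53737792 and chr16:53738025-53738754. Their knockout peaks had folds of 15.7 and 12.8, and the second of these had its summit 12 bp from that of the lighter, left WT peak. At all 5 loci the fold of the bridging peak lay within 2 units of that of 1 of the WT peaks.

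Pairs of the same strength with 2 knockout peaks were as near at hand. On chromosome 16, peaks of fold 16.6 and 15.7 at chr16:27214786-27215090 and chr16:27215310-27216052 stayed apart, with knockout folds of 13.7 and 17.2 and a gap of 190 bp in place of 219 bp. On chromosome 7, WT folds of 14.1 and 18.8 at chr7:74202690-74203099 and chr7:74203360-74203798 became 14.5 and 15.4, and the gap went from 260 to 214 bp. On chromosome 6, the gap at chr6:35464002-35464756 and chr6:35464925-35465540 was 168 bp in WT and 180 bp in the knockout, with WT folds of 14.5 and 13.8 and knockout folds of 10.4 and 10.3. The other pairs of this kind were at chr11:17035327-17035815 with chr11:17036042-17036749, where the gap was 226 bp in WT and 230 bp in the knockout, and at chr18:33160796-33161476 with chr18:33161786-33162406, where it was 309 and 312 bp.

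**Figure D4:**
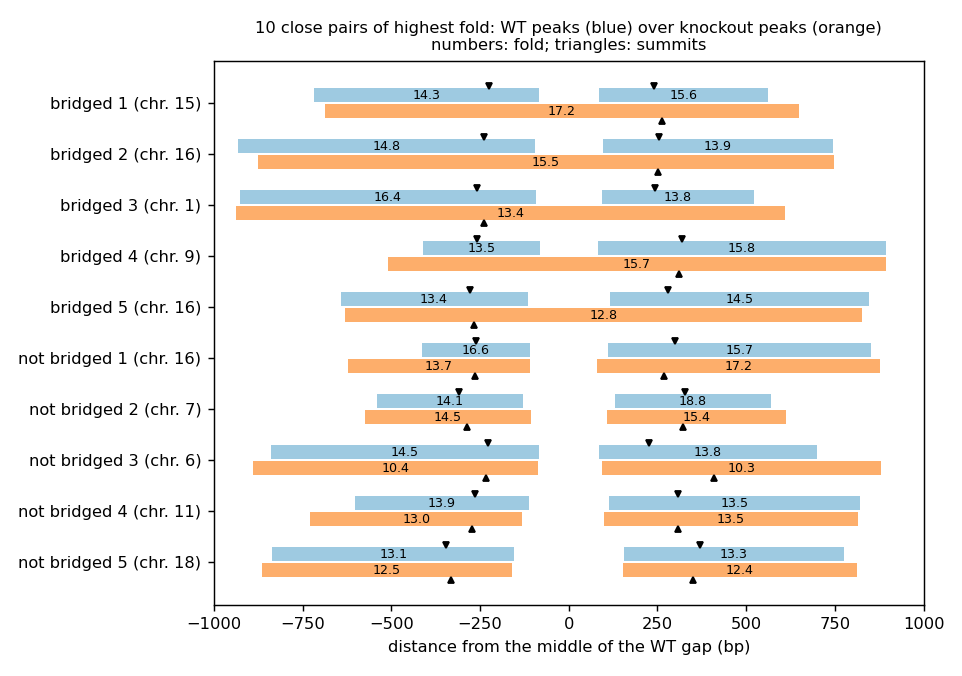
WT peaks (blue) and knockout peaks (orange) of the 5 bridged and the 5 unbridged pairs with the highest lower fold, drawn to scale by distance from the middle of the WT gap (x axis, bp); numbers are folds and triangles are summits. In each of the upper 5 loci 1 orange bar runs across the gap, and in the lower 5 the gap is present in both lists.

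Some bridged valleys were wide. The 3 bridged pairs of largest gap, chosen after their values were seen, had gaps of 478 bp at chr4:49120500-49121978 with chr4:49122457-49123213, 460 bp at chr17:56083413-56084642 with chr17:56085103-56085475, and 459 bp at chr1:147070889-147071475 with chr1:147071935-147072796. Their bridging knockout peaks were 2739, 2101 and 1961 bp wide.

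In 1552 pairs (59.7%, 57.8 to 61.6) each WT peak had its own knockout peak. The 2 knockout peaks were adjacent in all 1552, and 1525 were a close pair by the same rule in the knockout list. These 1525 were 58.7% of the WT close pairs and 72.9% of the knockout ones. Most summits of the 1552 pairs moved little, with a median shift of 16 bp and 84.7% of 3104 summits within 50 bp. The 95th percentile of the shift was 197 bp.

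Valleys were slightly narrower in the knockout in these pairs. The median gap was 264.5 bp in WT and 239 bp in the knockout, and the median change was -22 bp (-24 to -21). The gap was smaller in 1227 pairs (79.1%), larger in 314 (20.2%) and equal in 11. In all 32 pairs with a WT gap of 174 bp or less the knockout gap was larger, since no knockout gap is under 175 bp. Where the WT gap was over 250 bp, the median change was -28 bp and 85.0% of 897 gaps were smaller.

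Outer edges moved more than inner ones. In the one-to-one pairs, the inner edges moved into the valley by a median of 11 bp and the outer edges outward by 32 bp, over 3104 edges each. Where the gap was over 300 bp these were 13 and 34.5 bp. The one-to-one pairs leave out the 909 bridged pairs, and no knockout gap is under 175 bp. Movement into the valley was therefore limited by the choice of pairs, while movement outward was not. Edges of peaks with no close neighbour moved outward by a median of 29 bp. The summit distance changed little, from a median of 693 to 700.5 bp, with a median change of 6 bp (3 to 8).

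Left-right balance was close in both lists. The log2 left-right fold ratios of the 1552 pairs had a Spearman's rho of 0.975 between the lists, as a description over pairs that share their 2 libraries. The median absolute log2 ratio was 1.06 in WT and 1.03 in the knockout. The same side was heavier in 1463 of 1548 pairs without ties (94.5%, 93.3 to 95.6). The 85 pairs that changed side had been near even, with a median absolute log2 ratio of 0.13 in WT. Of the 1134 pairs with a WT ratio of at least 0.5 on the log2 scale, 8 changed side. The rho and the share of pairs that kept their heavier side were not taken for other adjacent pairs.

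The median absolute change of the log2 ratio was 0.18, and 11 pairs changed by 1 or more. Counting error of the 4 pileups alone gives a median SD of 0.18 for that change, and 82.2% of pairs lay within 2 such SD. An SD and a median absolute change are unlike measures, so their equal values do not mean that counting error accounts for the changes. The other pairs changed by more than 2 such SD, and the source of that spread was not tested. The 3 largest changes were at peaks of low WT pileup, though not all were of low fold. On chromosome 19, at chr19:47137254-47137504 and chr19:47137754-47137950, WT folds of 5.41 and 7.49 (pileups 12 and 17) became 13.2 and 4.66 in the knockout (89 and 33), a change of 1.97. On chromosome 17, at chr17:39821937-39822602 and chr17:39822944-39823368, folds of 8.84 and 11.4 became 12.8 and 6.34, a change of 1.38. On chromosome 1, at chr1:211688351-211688616 and chr1:211688865-211689320, folds of 6.24 and 4.16 (pileups 14 and 9) became 3.06 and 5.18 (12 and 21), a change of -1.34.

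**Figure D5:**
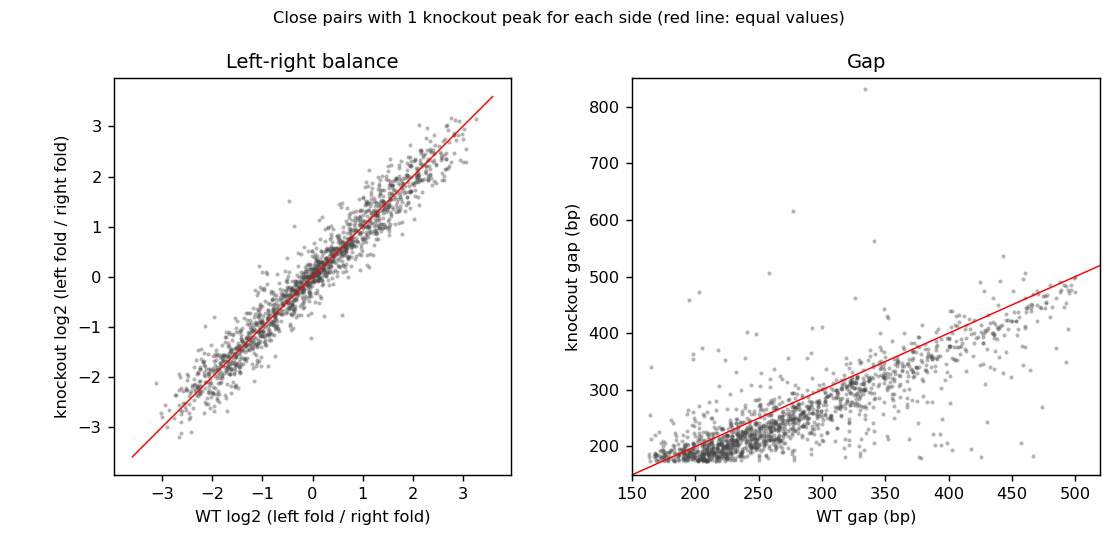
The 1552 pairs with 1 knockout peak for each side: log2 of left over right fold in WT (x axis) and knockout (y axis) at left, and the gap in bp in WT (x axis) and knockout (y axis) at right; each point is 1 pair and the red line marks equal values. Balance lies along the line, and 79.1% of the gaps lie below it.

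The change in height was then compared between the peaks of a pair. The log2 ratio of knockout to WT pileup was centred on its median over all 15888 one-to-one peaks of the list, 0.89. For 1550 of the close pairs, the centred ratios of left and right had a rho of 0.448. For adjacent pairs with gaps over 500 and up to 1000 bp it was 0.558 (249 pairs), over 1000 and up to 2000 bp 0.639 (205 pairs), and over 2000 bp 0.222 (11889 pairs). These are descriptions across regions of the same 2 libraries.

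Shifts of both peaks together were counted next. Both peaks were lower by at least 1 on the centred log2 scale in 1 of 1550 pairs, at chr11:2720151-2721221 and chr11:2721558-2721982, with centred ratios of -1.11 and -1.06. Both were higher by at least 1 in 5. One of them, at chr19:51161012-51161366 and chr19:51161732-51162308, had centred ratios of 1.16 and 1.10, with pileups of 78 and 114 in WT and 324 and 453 in the knockout. The locations of these pairs were looked up after their values were seen. As shares, 0.0645% (0.00163 to 0.359) of close pairs were lower and 0.323% (0.105 to 0.751) higher on both sides. Among adjacent pairs with gaps over 2000 bp these were 0.143% and 0.236%, and with gaps over 500 and up to 1000 bp 0% and 1.20% (3 of 249 pairs).

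A side could be counted as lost only in the 1690 unbridged pairs, because a bridging knockout peak overlaps both sides. In 106 pairs (4.08%, 3.35 to 4.91) only 1 of the WT peaks had a knockout peak, and the uncalled side was the lighter in 95 of them (89.6%). The uncalled side had a median pileup of 49.5 and its partner 196.5. In 18 pairs the uncalled side had a pileup above 100. In 4 further pairs a side held several knockout peaks. Counted singly, 162 of the 5198 peaks (3.12%) had no overlapping knockout peak, against 5.56% of all WT peaks.

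Neither peak had a knockout counterpart in 28 pairs (1.08%, 0.717 to 1.55). In 26 of them both pileups were 20 or less, and the median pileup over their 56 peaks was 11. One pair stood apart: at chr1:45965128-45965698 and chr1:45965959-45966589, the WT peaks had pileups of 188 and 265, folds of 10.1 and 14.1, and −log10 q of 118 and 203. The nearest knockout peak lay 8253 bp away. The next highest pileup in these pairs was 26, at chr12:49666088-49666729, beside a peak of pileup 8. The following pair by the naming rule, at chr14:66479780-66480232 and chr14:66480470-66480632, had pileups of 15 and 18. With 1 library each, the locus has no replicate check.

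Across chromosomes, close pairs held between 21.3% of the peaks (chromosome 3) and 31.1% (chromosome 21). The bridged share ran from 15.2% on chromosome 21 (5 of 33 pairs, 5.11 to 31.9) to 48.2% on chromosome 15 (40 of 83, 37.1 to 59.4). On each of the 22 chromosomes the share of WT pairs bridged by a knockout peak was above the share of knockout pairs bridged by a WT peak. Chromosomes with a larger share of gaps of 200 bp or less had a larger bridged share (rho 0.738 over 22 chromosomes). Between the bridged share and the centred pileup ratio of a chromosome rho was 0.181. No interval was taken for it, so it is not read as a relation. Both are descriptions over chromosomes of the same libraries.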

How the data were processed

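H3K4me3 ChIP-seq peak lists of 1 WT and 1 ZNF143KO library were used. Per the submitters' processing notes, the tools were Bowtie2, SAMtools 1.12, MACS2 and deepTools and the build was hg19. Settings and any control library are not given in the sources used here. The deposited columns hold the authors' fold (a ratio of summit pileup to local background), −log10 p and −log10 q, and a score that was not used. The largest q-value was 0.0322 in WT and 0.0453 in the knockout. Summit pileup and background rate were recovered from the deposited fold and −log10 p by a Poisson formula. The recovered values gave back the deposited −log10 p with a relative error of at most 1.2e-05. The method was tested on simulated data made with the same formula.

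A knockout peak bridged a pair when it overlapped both WT peaks by at least 1 bp. Intervals are at 95%, exact (Clopper-Pearson) for shares and from order statistics for medians; both express counting error alone. Pairs are not replicates, and no test was made. Named pairs were the 5 bridged and 5 unbridged of highest lower fold, and the 3 extremes of balance, gap, change of balance and absence; others are marked as chosen afterwards. The pairs, the naming rule and the alternatives were chosen with earlier results of these data known. Checks against gene starts and cell type markers require an annotation of hg19 and were left out. Computation used scipy 1.17.1, pandas 2.3.3 and numpy 2.4.6 under Python 3.11.15, and figures matplotlib 3.10.9.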

Additional observations from a re-analysis of the deposited data

Results flagged for a closer look

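Close pairs were also present on sequences outside chromosomes 1 to 22, which the comparisons leave out. In the WT list the same rule found 98 pairs on chromosome X, 7 on chromosome Y, 90 on haplotype sequences of the build and 16 on unplaced or unlocalized sequences. The knockout list held 84, 7, 108 and 21 in the same order. Median gaps in WT were 244 bp on chromosome X and 273.5 bp on haplotype sequences, against 231 bp on chromosomes 1 to 22.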

How the results depend on the processing

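No paired analysis was possible because WT and knockout are 1 library each. Of 42 alternatives for 8 results, 31 stayed within the interval of the main value, or within 1.5 times a count, and 11 did not. Gap limits of 300 and 1000 bp gave median gaps of 211 and 239 bp, median summit distances of 591 and 665 bp, and bridged shares of 43.8% and 32.4%; at 300 bp the swapped share was 5.43%. Peak centres gave a median distance of 963 bp. On −log10 q the median absolute log2 ratio was 1.82. Chosen after the data were seen, a gap of at least 175 bp gave a bridged share of 28.6%, and knockout pileups of at least 100 gave a swapped share of 3.40%. The lowest bridged share under any alternative, 28.6%, lay above the highest swapped share, 5.43%. Depth, peak width and smallest gap differ with genotype and cannot be told apart from it.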

Other observations

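Among pairs outside the limit, 10 with a gap over 500 and up to 1000 bp and 1 with a wider gap were bridged. The widest, chosen after its values were seen, lay at chr17:1212156-1212411 and chr17:1213920-1214128, 1508 bp apart, with pileups of 10 and 8. On chromosome 1, peaks of fold 3.36 and 16.8 at chr1:10854977-10855284 and chr1:10856149-10856720, 864 bp apart, lay under 1 knockout peak of 1782 bp and fold 15.6.

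Among pairs that lost 1 side, the highest pileup on the uncalled side was 351, on chromosome 10 at chr10:42394762-42394926, where the folds were only 1.88 and 1.84. The next, with pileups of 162 and 137, were at chr1:145208673-145208856 and chr11:69455493-69455695. These were also looked up after their values were seen.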
